A study of Mus musculus with 6 samples.

Results

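The Cyp4 family of cytochromes P450 was examined in mouse liver through every probe set annotated to Cyp4a10, Cyp4a12a, Cyp4a14, Cyp4b1, Cyp4f13, Cyp4f14, Cyp4f15, Cyp4f16 or Cyp4v3, alone or together with another gene. All 9 genes, of 13319 with a symbol on the array, had at least 1 probe set, 12 of 22690 in all. Swiss-Webster mice were fed fractions of Boswellia serrata, the tree that yields Indian frankincense, and total RNA of their livers was read on 6 Affymetrix mouse arrays. Fraction 1, extracted with hexane, was eaten at 1% of the food over 21 days (2 arrays), and fraction 2, extracted with methanol, at the same share and time (2 arrays). Mice on control diet gave the last 2 arrays, and both comparisons with control share them. Strain and organ were the same in all 3 groups. Sex, age and the number of animals behind an array are not given in the labels, so a p-value here covers the spread between these arrays only, which may be technical.

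Cyp4 enzymes hydroxylate fatty acids and eicosanoids at or next to the end of the chain that lies farthest from the acid group. Further oxidation of fatty acids hydroxylated at the end gives dicarboxylic acids, which are shortened in peroxisomes. In rodent liver the Cyp4a genes are classical targets of the fatty acid receptor PPAR-alpha, while Cyp4f enzymes are known for inactivating leukotrienes and for breaking down vitamin E side chains. Cyp4v3 is the mouse counterpart of the human gene mutated in Bietti crystalline dystrophy, a retinal disease of lipid deposits.

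In the GRCm38.p6 gene order the family is clustered. Cyp4a14, Cyp4a10 and Cyp4a31 are next to one another on chromosome 4, where Cyp4a12a lies beside Cyp4a12b and Cyp4b1 beside Cyp4a32. The Cyp4f genes share chromosome 17, with Cyp4f14 next to Cyp4f13 and Cyp4f16 between Cyp4f17 and Cyp4f37. Cyp4v3 lies on chromosome 8 beside Klkb1, with no other Cyp4 gene next to it. Promoter windows of RefSeq, from 250 bases before to 50 after a gene's start, were at hand for 6 of the 9 genes: Cyp4b1, Cyp4f13, Cyp4f14, Cyp4f15, Cyp4f16 and Cyp4v3. The windows of Cyp4v3, Cyp4f14 and Cyp4f15, whose signals were lower on both fraction 1 arrays than on both control arrays, are given with that of Cyp4f13, whose groups overlapped. Coordinates are on GRCm38.p6, each sequence is written 5′ to 3′ along its gene, and capitals mark the CCAAT box, here always on the opposite strand.
Cyp4v3, chr8:45333114-45333413, minus strand: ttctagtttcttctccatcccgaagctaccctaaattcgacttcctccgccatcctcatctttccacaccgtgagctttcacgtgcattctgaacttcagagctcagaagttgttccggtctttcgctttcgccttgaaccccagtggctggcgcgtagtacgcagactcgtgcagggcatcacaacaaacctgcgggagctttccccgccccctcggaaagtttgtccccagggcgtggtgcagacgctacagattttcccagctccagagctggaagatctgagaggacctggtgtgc
Cyp4f14, chr17:32917307-32917606, minus strand: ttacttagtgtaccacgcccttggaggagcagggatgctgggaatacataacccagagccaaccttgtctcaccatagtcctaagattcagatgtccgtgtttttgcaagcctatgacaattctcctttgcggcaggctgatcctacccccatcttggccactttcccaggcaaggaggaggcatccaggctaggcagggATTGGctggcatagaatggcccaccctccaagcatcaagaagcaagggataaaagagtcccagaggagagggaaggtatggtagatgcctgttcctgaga
Cyp4f15, chr17:32685409-32685708, plus strand: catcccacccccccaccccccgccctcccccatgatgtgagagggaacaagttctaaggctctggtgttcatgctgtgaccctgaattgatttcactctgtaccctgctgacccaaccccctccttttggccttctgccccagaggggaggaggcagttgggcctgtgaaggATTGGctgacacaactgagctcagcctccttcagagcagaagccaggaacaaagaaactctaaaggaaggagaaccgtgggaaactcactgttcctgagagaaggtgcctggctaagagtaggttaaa
Cyp4f13, chr17:32947312-32947611, minus strand: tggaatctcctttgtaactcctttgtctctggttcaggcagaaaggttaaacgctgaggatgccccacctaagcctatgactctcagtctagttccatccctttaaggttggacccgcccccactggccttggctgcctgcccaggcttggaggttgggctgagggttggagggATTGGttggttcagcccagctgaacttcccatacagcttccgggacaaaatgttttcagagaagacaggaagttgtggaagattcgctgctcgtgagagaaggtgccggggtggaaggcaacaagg

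Each of the 4 Cyp4f windows held a CCAAT box on the opposite strand, from -50 to -46 relative to the gene's start in Cyp4f14, -78 to -74 in Cyp4f15, -76 to -72 in Cyp4f13 and -23 to -19 in Cyp4f16. Those of Cyp4v3 and Cyp4b1 held none. Across 32544 different windows of RefSeq, 37.4% held CCAAT on either strand. The nuclear receptor site AGGTCA, searched on both strands, was in 16.2% of windows and in none of the 6. The PPAR element, a direct repeat of that site with a single base of any kind between the copies and thus overlapping it, was in 0.0399% of windows and in none of the 6. The STAT5 element TTCNNNGAA, which reads the same way on both strands and serves growth hormone signalling, was in 8.33% of windows, and in those of Cyp4b1 and Cyp4f13. A GC box, GGGCGG on either strand, was in 35.9% of windows and in all of the 6 except that of Cyp4f14, and TATAAA, in 13.6% on either strand, was in none of the 6. Such matches are a description of letters and not of binding. The windows of Cyp4f16 and its neighbour Cyp4f37 shared an unbroken run of 74 bases, shown because these genes also share a probe set.
Cyp4f16 and Cyp4f37, shared run: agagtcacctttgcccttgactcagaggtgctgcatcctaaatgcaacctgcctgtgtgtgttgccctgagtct

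Of the 12 probe sets, 10 were bright enough to be tested, at least 1 for each gene. The other 2 were dim. That shared by Cyp4f37 and Cyp4f16 read between 10.5 and 28 array units on all 6 arrays, and a further Cyp4f16 probe set between 13.5 and 101.3. Cyp4a10 was measured only by a probe set that also matches Cyp4a31, so its signal cannot be assigned to 1 gene. The separate probe set of Cyp4a31 was too dim to be tested, at 9.3 and 4.5 array units after fraction 1, 24.5 and 8.9 after fraction 2, and 32.6 and 49.9 in control. Cyp4f18, a family member of neutrophils, was at 2.6 to 4.8 array units throughout and was not tested.

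The arrays were alike in median signal, 139.3 to 167.2 array units. Control replicate 1 and fraction 2 replicate a were scanned as 1 batch (batch 2), and the other 4 arrays as another (batch 1), so no fraction 1 array lay in batch 2. By chip lot, control replicate 2 and fraction 1 replicate a shared lot 1, and control replicate 1 and fraction 2 replicate a lot 3. Fraction 1 replicate b was in lot 2 with fraction 2 replicate b and with no control array. Hepatocyte markers were bright on all arrays, and 9 of 10 were tested. They summed to 150226 and 134702 array units after fraction 1, 129866 and 122141 after fraction 2, and 150788 and 167125 in control. Markers of the exocrine pancreas were also bright, with 5 of 5 tested and summed signals of 7783 and 25669 array units after fraction 1, 26165 and 14009 after fraction 2, and 19481 and 13445 in control. Fraction 1 replicate a was the lowest in them and fraction 1 replicate b among the highest. Neutrophil markers, 5 of 8 tested, summed to 1411 and 1155 after fraction 1, 866.3 and 915.1 after fraction 2, and 849.2 and 1414 in control, with S100a8, S100a9 and Camp too dim to be tested. Of 6 kidney markers Umod and Slc12a3 were too dim and 4 were tested, and the list summed to 818.2 and 846.1 after fraction 1, 568.6 and 641.9 after fraction 2, and 495 and 1179 in control. Of 4 lung markers Sftpc and Scgb1a1 were too dim and 2 were tested, and the list summed to between 327.5 and 577.3.

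Markers of other liver cells also differed between arrays. Endothelial markers, 6 of 6 tested, summed to 2409 and 1942 array units after fraction 1, 2681 and 2616 after fraction 2, and 2903 and 3312 in control, and so were lowest on fraction 1 replicate b. Kupffer cell markers, 10 of 10 tested, summed to 8218 and 8966 after fraction 1, 9183 and 9743 after fraction 2, and 9365 and 10370 in control. Stellate cell markers, 6 of 7 tested, summed to 3315 and 2969 after fraction 1, 4415 and 3512 after fraction 2, and 4906 and 3582 in control. On the log2(signal + 16) scale, Stab2, a scavenger receptor of sinusoidal endothelium, stood at -0.92 ± 0.19 SE against control after fraction 1 (limma, adjusted p = 0.0858). Of the 6 endothelial markers 4 were below 0 there, with a median of -0.20. The macrophage genes Adgre1 and Clec4f stood at -0.77 and -0.55, and Marco at 0.46. Of the 10 Kupffer cell markers 8 were below 0, with a median of -0.18. Over 9209 genes, each by its brightest tested probe set, 53.7% were below 0 and the median was -0.03. After fraction 2 the hepatocyte markers Ttr, Apoa1, Apoa2 and Alb stood at -0.47, -0.44, -0.43 and -0.42. These 4 of 9 tested had an unadjusted p under 0.05, which 7.23% of all genes reached in either direction. Of the 9, 7 were below 0 and 2 above, and their median was -0.19, beside -0.05 over all genes. No cell type marker passed the adjusted test in any comparison. The ratio of 3′ to 5′ signal of the actin control, a sign of RNA quality, was 3.87 on control replicate 2 and 2.13 to 2.64 elsewhere. The part of these differences in the Cyp4 values was not tested. In bulk liver, fewer hepatocytes and less RNA per hepatocyte cannot be told apart.

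Replicates of a group could lie far apart. Of the 10 tested probe sets, 7 had their lowest signal of all 6 arrays on fraction 1 replicate b, which held the lowest signal of 19.2% of all tested probe sets. The other 3 were lowest on fraction 2 replicate a, against 18.6% of all. Control replicate 2 held the highest signal of 4 of the 10, and of 30.0% of all tested probe sets. Control replicate 1 was highest in 3 (16.6% of all), fraction 2 replicate a in 2 (13.4%) and fraction 1 replicate a in 1 (11.6%). Cyp4a14, a lauric acid hydroxylase, varied most within groups: its replicates differed 5.36-fold after fraction 1, 1.15-fold after fraction 2 and 2.60-fold in control. Its residual SD of 1.12 on the log2 scale was larger than that of 99.4% of tested probe sets. For Cyp4a12a the residual SD was 0.58, above 92.1% of probe sets, while Cyp4f13 (0.21) and the Cyp4v3 _s_at probe set (0.22) exceeded 42.7% and 44.2%. An Affymetrix name ending in _s_at marks a set whose probes match several transcripts, and one ending in _at a set designed for 1.

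**Figure D1:**
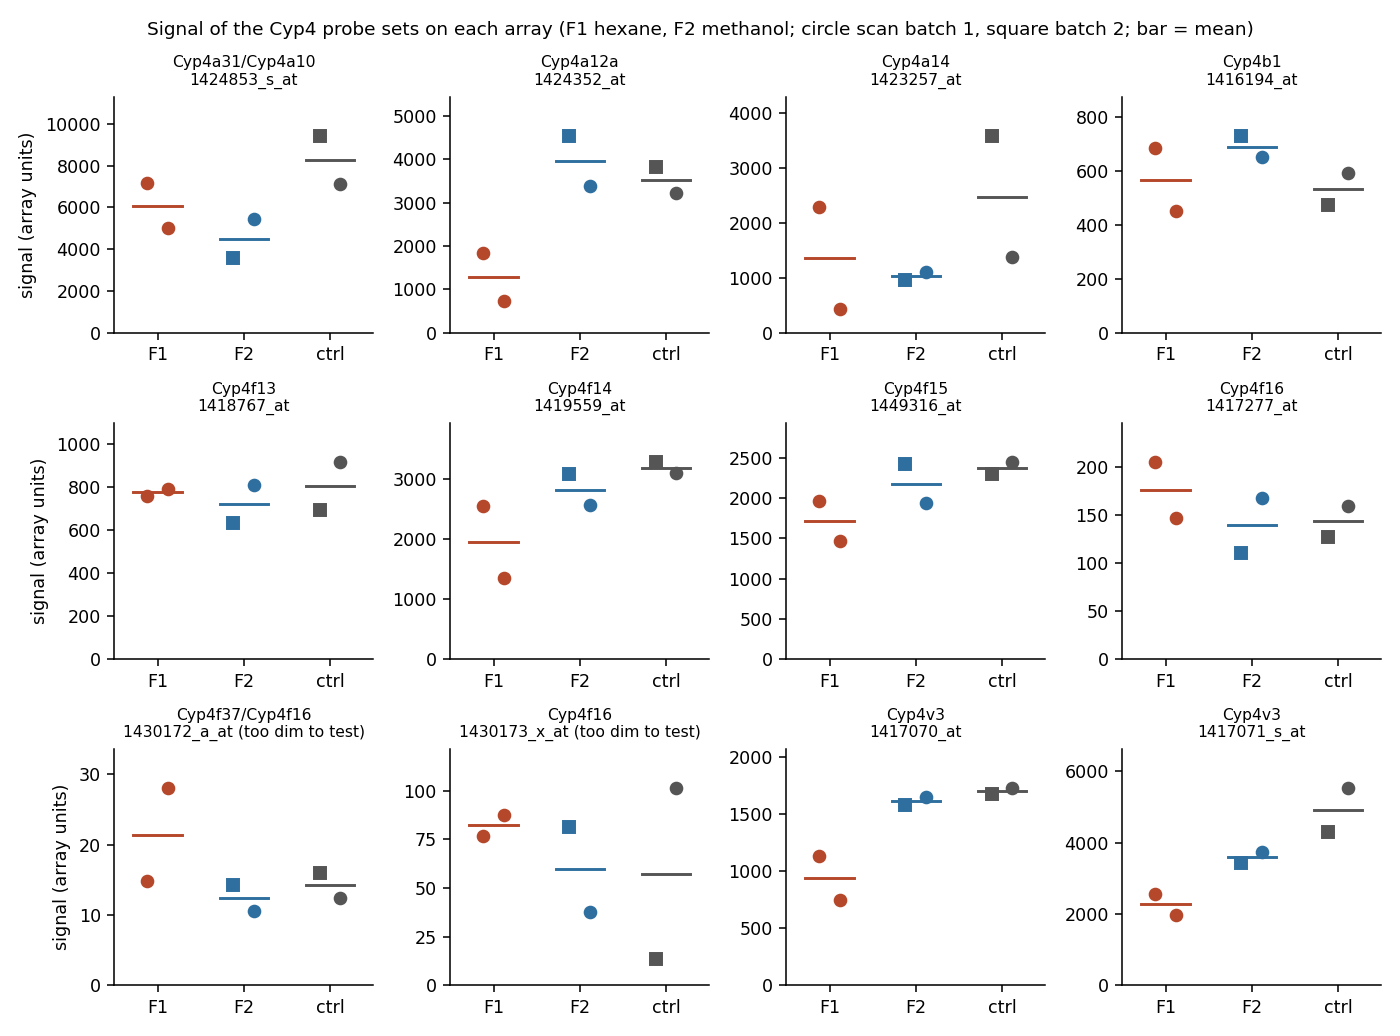
Signal in array units of the 12 Cyp4 probe sets on each of the 6 arrays, with fraction 1 (F1), fraction 2 (F2) and control (ctrl) from left to right, scan batch as the shape of the point and the group mean (n = 2) as a bar. Both Cyp4v3 probe sets and Cyp4a12a are lower on both fraction 1 arrays than on the other 4, whereas Cyp4a14 is spread within fraction 1 and within control.

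Fraction 1 was set against control to learn how the liver's Cyp4 transcripts stood once the hexane fraction had been eaten. Cyp4v3 fell, by 1 of its 2 probe sets. Cyp4a12a, Cyp4f14 and Cyp4f15 read lower on both fraction 1 arrays than on both control arrays without passing the test. Signals of the remaining 5 probe sets overlapped, 2 of them with a fold change above 0 (Cyp4f16 and Cyp4b1).

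The Cyp4v3 _s_at probe set read 2569 and 1979 array units after fraction 1, against 4292 and 5528 in control. Fraction 1 averaged 2274 ± 418 and control 4910 ± 874 (SD, n = 2). Both fraction 1 arrays were below both control arrays by more than either group's replicates differed. On that log2 scale, used for every fold change here, this was -1.11 ± 0.19 SE (95% interval -1.54 to -0.67, limma, adjusted p = 0.04998). The call lies at the threshold of 0.05. Its adjusted p ran from 0.0297 to 0.38 over 17 alternatives, of which 5 kept it, and the fold change from -1.29 to -0.92. Of the 6 arrays, only the omission of control replicate 1 kept the call (adjusted p = 0.0369). Without fraction 1 replicate b the change was -0.92 (adjusted p = 0.38).

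The Cyp4v3 _at probe set read 1135 and 749.9 array units after fraction 1, against 1673 and 1727 in control. Again the groups did not overlap. The change was -0.87 ± 0.22 (adjusted p = 0.141 with limma), and it passed under none of 17 alternatives (adjusted p from 0.116 to 0.768).

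Cyp4a12a, the arachidonic acid hydroxylase known to be stronger in male than in female mice, read 1835 and 724.1 array units after fraction 1, against 3831 and 3214 in control. Both fraction 1 arrays lay below both controls, and they differed 2.53-fold from each other. The log2 fold change was -1.59 ± 0.37 (95% interval -2.45 to -0.74, adjusted p = 0.118), the largest decrease among the Cyp4 probe sets. Which fraction 1 array is left out decides this result: without replicate a it was -2.25 (adjusted p = 0.0171), and without replicate b -0.93 (adjusted p = 0.446).

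Cyp4f14, which oxidizes leukotriene B4 and vitamin E, read 2555 and 1347 array units after fraction 1, against 3277 and 3091 in control. Its change was -0.77 ± 0.28 (adjusted p = 0.289), and -0.31 without fraction 1 replicate b. Cyp4f15 read 1966 and 1465 after fraction 1, against 2302 and 2448 in control, a change of -0.48 ± 0.20 (adjusted p = 0.38). Neither gene's groups overlapped. Within batch 1, where control replicate 2 is the only control, the _s_at and the _at probe set of Cyp4v3, Cyp4a12a, Cyp4f14 and Cyp4f15 stood at -1.29, -0.89, -1.46, -0.73 and -0.52.

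Cyp4a14 read 2299 and 428.8 array units after fraction 1, against 3586 and 1378 in control. The higher fraction 1 array lay between the controls and the other below both. The change of -1.14 ± 0.69 had a 95% interval of -2.72 to 0.43 (adjusted p = 0.556), and it was 0.05 without fraction 1 replicate b, -2.33 without replicate a, -0.46 without control replicate 1 and -1.83 without control replicate 2. The probe set of Cyp4a31 and Cyp4a10 read 7165 and 5016 after fraction 1, against 9420 and 7097 in control, at -0.45 ± 0.25 (adjusted p = 0.529).

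Cyp4b1, best known from rabbit lung, where it activates the toxin ipomeanol, read 682.9 and 451.7 array units after fraction 1, against 471.9 and 591.2 in control. Its change was 0.07 ± 0.24 (95% interval -0.49 to 0.63, adjusted p = 0.947). Cyp4f13 read 759.1 and 789.1 after fraction 1, against 692.7 and 914.2 in control, at -0.04 ± 0.22 (95% interval -0.53 to 0.45). Cyp4f16 read 205.6 and 147.6 after fraction 1, against 127.6 and 160.3 in control, at 0.26 ± 0.31 (95% interval -0.45 to 0.96). For each of these 3 genes the groups overlapped, and the intervals leave room for changes of either sign.

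Over the 10 tested Cyp4 probe sets, 1 was called after fraction 1, and it was lower, where 0.712% of 14755 tested probe sets were called, 0.346% of them lower. Lower without overlap stood 5 of 10, against a background of 22.1%, and higher without overlap 0 of 10, against 18.8%. An unadjusted p under 0.05 was reached by 5, all lower, against 6.48% of all probe sets that were lower at that level. Below 0 were 8 of 10, against 52.8%, and the median log2 fold change was -0.63, beside -0.02 over all tested probe sets. Without fraction 1 replicate b the median was -0.23, with 7 of 10 below 0, and without any other array of these groups it lay between -0.93 and -0.49. With 2 probe sets for Cyp4v3, these counts are not of independent genes.

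**Figure D2:**
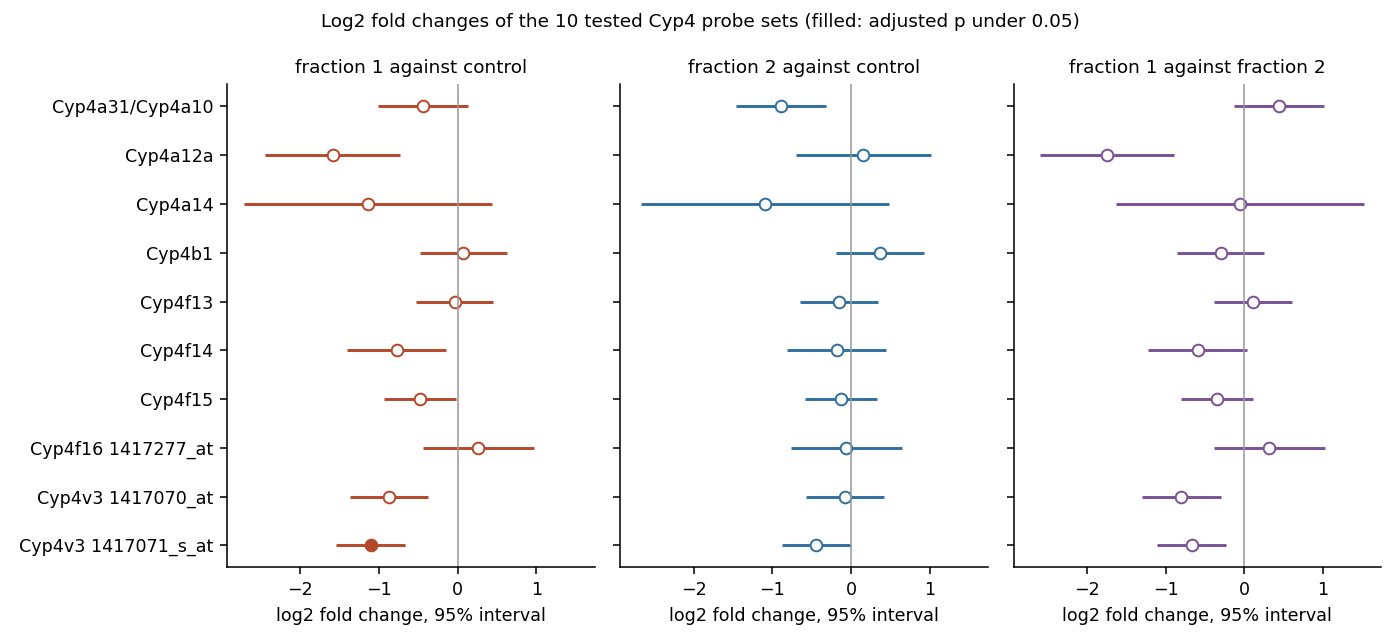
Log2 fold changes of the 10 tested Cyp4 probe sets with 95% intervals from limma, for fraction 1 against control, fraction 2 against control and fraction 1 against fraction 2 (n = 2 arrays a group). Only the Cyp4v3 _s_at probe set after fraction 1 is filled, for an adjusted p under 0.05, while Cyp4a12a at -1.59 and -1.75 has the lowest value in the left and right panels.

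The methanol fraction was compared with control in the same way. No Cyp4 probe set passed with limma, and 2 of 10 had an unadjusted p under 0.05, both lower: that of Cyp4a31 and Cyp4a10 and the Cyp4v3 _s_at probe set. The background was 0.108% called and 3.56% lower at the unadjusted level. The lowest values were those of Cyp4a14 and of the probe set shared by Cyp4a31 and Cyp4a10, both of the PPAR-alpha responsive cluster. Cyp4a12a overlapped control.

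The probe set of Cyp4a31 and Cyp4a10 read 3566 and 5432 array units after fraction 2, against 9420 and 7097 in control, without overlap. Its change was -0.89 ± 0.25 (95% interval -1.46 to -0.32, adjusted p = 0.533), and with 1 array left out it ran from -1.19 to -0.59. Within scan batches it was -0.38 in batch 1 and -1.40 in batch 2, each from 1 array against 1. Cyp4a14 read 963.7 and 1109 after fraction 2, against 3586 and 1378 in control, also without overlap. Its change was -1.09 ± 0.69 (adjusted p = 0.787), with -0.31 in batch 1 and -1.88 in batch 2. In both probe sets control replicate 1, of batch 2, was the brighter control. Without it the changes were -0.69 for the shared probe set and -0.41 for Cyp4a14.

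Cyp4a12a read 4538 and 3373 array units after fraction 2, against 3831 and 3214 in control, at 0.16 ± 0.37 (95% interval -0.70 to 1.01, adjusted p = 0.939). The Cyp4v3 _s_at probe set read 3440 and 3741 after fraction 2, against 4292 and 5528 in control. That is a change of -0.44 ± 0.19 (adjusted p = 0.717) without overlap. For the Cyp4v3 _at probe set the change was -0.07 ± 0.22, from 1581 and 1652 array units after fraction 2, against 1673 and 1727 in control. Both Cyp4v3 probe sets thus read lower on both fraction 2 arrays than on both controls. Their 95% intervals, -0.88 to -0.0024 for the _s_at and -0.57 to 0.42 for the _at probe set, overlapped. The second included 0, and a difference in size between the 2 probe sets was not tested.

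Cyp4f14 read 3071 and 2563 array units after fraction 2, against 3277 and 3091 in control, at -0.18 ± 0.28. Cyp4f15 read 2426 and 1935 after fraction 2, against 2302 and 2448 in control, at -0.13 ± 0.20. Cyp4f13 and Cyp4f16 stood at -0.15 ± 0.22 and -0.06 ± 0.31. Cyp4b1 read 729 and 649.6 after fraction 2, against 471.9 and 591.2 in control, the only Cyp4 probe set above control without overlap, at 0.37 ± 0.24 (adjusted p = 0.793). In all, 5 of 10 were lower without overlap and 1 higher, beside 20.4% and 14.8% of all tested probe sets. Below 0 were 8 of 10, beside 55.4%. The median was -0.14, beside -0.04 over all, and ran from -0.21 without fraction 2 replicate b to -0.07 without control replicate 2.

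Set directly against each other, the fractions differed most in Cyp4a12a and Cyp4v3, both lower after fraction 1. Neither passed. Cyp4a12a read 1835 and 724.1 array units after fraction 1, against 4538 and 3373 after fraction 2, a difference of -1.75 ± 0.37 (95% interval -2.60 to -0.89, adjusted p = 0.275). It was -1.09 without fraction 1 replicate b and -2.41 without replicate a (adjusted p = 0.0272). The Cyp4v3 _s_at probe set read 2569 and 1979 array units after fraction 1, against 3440 and 3741 after fraction 2, a difference of -0.67 ± 0.19 (adjusted p = 0.444). For the _at probe set it was -0.80 ± 0.22 (adjusted p = 0.43). None of these groups overlapped. Within batch 1 Cyp4a12a stood at -1.53, and the _s_at and _at probe sets of Cyp4v3 at -0.73 and -0.83.

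Cyp4a14 overlapped between the fractions, at -0.05 with a 95% interval of -1.63 to 1.53. The probe set of Cyp4a31 and Cyp4a10 stood at 0.44 ± 0.25 (adjusted p = 0.67), with 7165 and 5016 array units after fraction 1, against 3566 and 5432 after fraction 2. Cyp4f14 was lower without overlap at -0.59 ± 0.28 (adjusted p = 0.628). With limma, 0 of 10 Cyp4 probe sets passed, where 0.0136% of all did. At an unadjusted p under 0.05 there were 3, all lower after fraction 1, against 4.18% of all. Lower without overlap were 4 of 10 and higher 0, beside 21.4% and 25.4% of all tested probe sets. Below 0 were 7 of 10, beside 47.7%. Their median was -0.32, and without fraction 1 replicate b or replicate a it was -0.07 or -0.72.

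**Figure D3:**
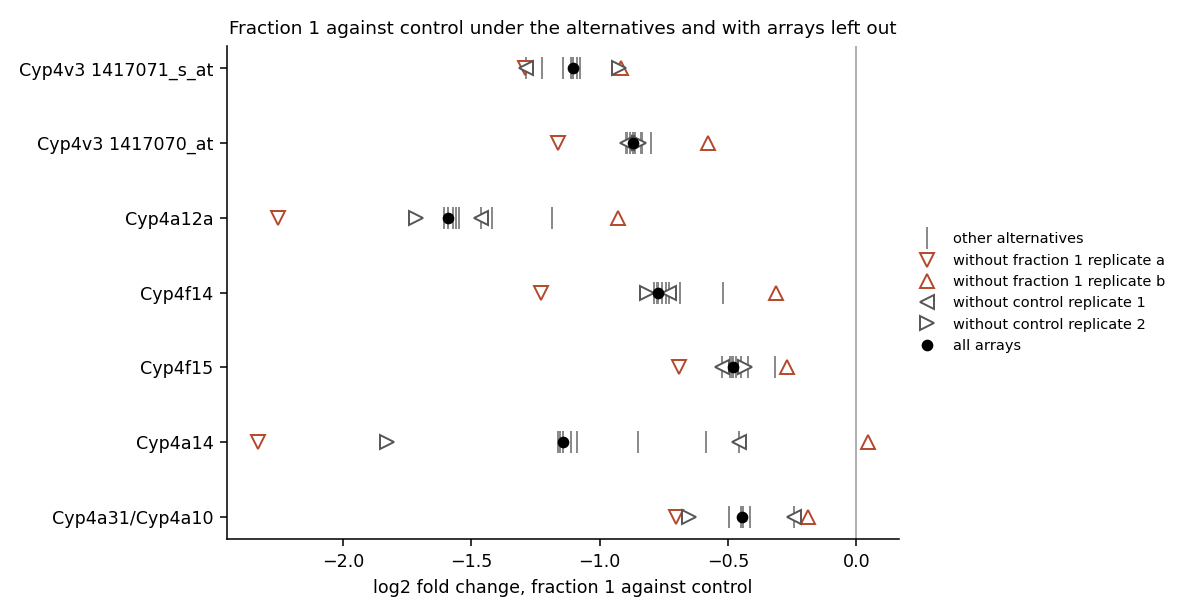
Log2 fold changes of the 7 Cyp4 probe sets with the lowest values after fraction 1 against control, with all arrays (black), under other settings (grey bars) and without 1 array of either group (triangles). Leaving out fraction 1 replicate b moves every one of the 7 towards 0, and Cyp4a14 to 0.05, while leaving out replicate a moves each away from it; the 3 not drawn move away from 0 without replicate b, to 0.36 for Cyp4b1, 0.48 for Cyp4f16 and -0.07 for Cyp4f13.

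Genes around the hydroxylases were read from lists, in each gene's brightest tested probe set. Of PPAR-alpha and its partners, 9 genes were tested and none passed in any comparison with limma. After fraction 1 their median was -0.18 (-0.0076 without control replicate 2), beside -0.03 over 9209 genes, of which 0.738% were called after fraction 1, 0.119% after fraction 2 and 0% between the fractions. An unadjusted p under 0.05 was reached by 2 of the 9 after fraction 1, both higher, and by 1 after fraction 2, lower, where 12.9% and 7.23% of all genes reached it in either direction. Ppara itself read 262.7 and 100.8 array units after fraction 1, 523.7 and 387.6 after fraction 2, and 418.9 and 216.4 in control. Its changes against control were -0.82 ± 0.44 after fraction 1 and 0.55 ± 0.44 after fraction 2, and between the fractions -1.37 ± 0.44 (adjusted p = 0.498). Lpin1, a phosphatidate phosphatase and coactivator, stood at 0.89 ± 0.35 after fraction 1 (adjusted p = 0.348) and the coactivator Ppargc1a at 0.69 ± 0.26. The Lpin1 signals were 3488 and 4348 array units after fraction 1, against 3268 in control replicate 1 and 1343 in control replicate 2.

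None of 19 PPAR-alpha targets outside beta oxidation passed in any comparison. Adjusted p values after fraction 1 were lowest for Retsat, a retinol saturase, and Acot1, a cytosolic acyl-CoA thioesterase. Retsat read 3687 and 2773 array units after fraction 1, against 8825 and 5904 in control, at -1.17 ± 0.22 (adjusted p = 0.0628). Acot1 read 992.5 and 743.3 after fraction 1, against 339 and 393.7 in control, at 1.20 ± 0.23 (adjusted p = 0.0699). After fraction 2 Acot1 stood at 1.10 ± 0.23 (adjusted p = 0.347), and the fatty acid carrier Cd36 at 1.69 ± 0.28 (adjusted p = 0.154). Cd36 read 463.2 and 326.9 after fraction 2, against 121.1 and 98.7 in control. The fatty acid transporter Slc27a2 stood at -0.59 ± 0.13 after fraction 1 (adjusted p = 0.091). Values on this list thus lay on both sides of 0, with 8 above and 11 below after fraction 1 and a median of -0.03. At an unadjusted p under 0.05, 3 were higher and 4 lower after fraction 1, and 4 higher and 3 lower after fraction 2, 7 of 19 each time, against 12.9% and 7.23% of all genes.

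Of 17 genes of peroxisomal beta oxidation and import and 16 of mitochondrial beta oxidation, none passed in any comparison. The peroxisomal median was -0.19 after fraction 1 and -0.09 after fraction 2, and the mitochondrial one -0.21 and -0.08, beside -0.03 and -0.05 over all genes. Without fraction 2 replicate b those after fraction 2 were 0.083 and -0.026. Below 0 after fraction 1 were 14 of the 16 mitochondrial genes, where 53.7% of all genes were. After fraction 1, Scp2, which carries and thiolyses branched chains, stood at -0.71 ± 0.16 (adjusted p = 0.11), the thiolase Acaa1b at -0.57 ± 0.13, the mitochondrial thiolase Acaa2 at -0.48 ± 0.12, and Crat, carnitine acetyltransferase, at 0.98 ± 0.22 (adjusted p = 0.103). An unadjusted p under 0.05 was reached by 5 of 17 peroxisomal genes after fraction 1, 2 higher and 3 lower, and by 3 of 16 mitochondrial genes, all lower, against 12.9% of all genes.

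Enzymes that take the hydroxylated acid further and supply electrons showed no called change in 8 genes. Adh4, an alcohol dehydrogenase, stood at -0.52 ± 0.15 after fraction 1 (adjusted p = 0.179). It alone of the 8 had an unadjusted p under 0.05 there, a share near the 12.9% of all genes. Among 10 leukotriene and eicosanoid genes none passed either. The epoxide hydrolases lay on opposite sides of 0 after fraction 1, Ephx2 at -0.55 ± 0.13 (adjusted p = 0.136) and Ephx1 at 0.59 ± 0.18 (adjusted p = 0.218). Cyp2j5, an arachidonic acid epoxygenase, stood at -0.37 ± 0.15 after fraction 1.

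Because Cyp4a12a is male-biased, it was set beside 14 other male-biased liver genes. Of these 10 fell after fraction 1 (limma, adjusted p up to 0.04998), where 0.402% of genes fell, and 4 did not pass. This list was chosen with earlier results of these data known and is no independent evidence of its direction. Its median was -1.54, beside -1.59 for Cyp4a12a. Hsd3b5, a steroid-metabolizing enzyme, read 8.2 and 8.3 array units after fraction 1, against 4685 and 5754 in control. Keg1 read 3288 and 2635 after fraction 1, against 7690 and 8064 in control, at -1.41 ± 0.15 (adjusted p = 0.00914). After fraction 2 the list's median was -0.78 (-0.51 without fraction 2 replicate b) and 2 fell, Hsd3b5 and Serpina12 (0.0217% of genes fell), whereas Cyp4a12a stood at 0.16. All 14 were below 0 after fraction 2, and Cyp4a12a was above. Of 8 female-biased genes none passed in any comparison, and their median was 0.47 after fraction 1 and -0.31 after fraction 2, the second being 0.10 without control replicate 2. Cux2, a transcription factor of female liver, read 304.3 and 297 after fraction 1, against 148 and 7.7 in control (adjusted p = 0.288).

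**Figure D4:**
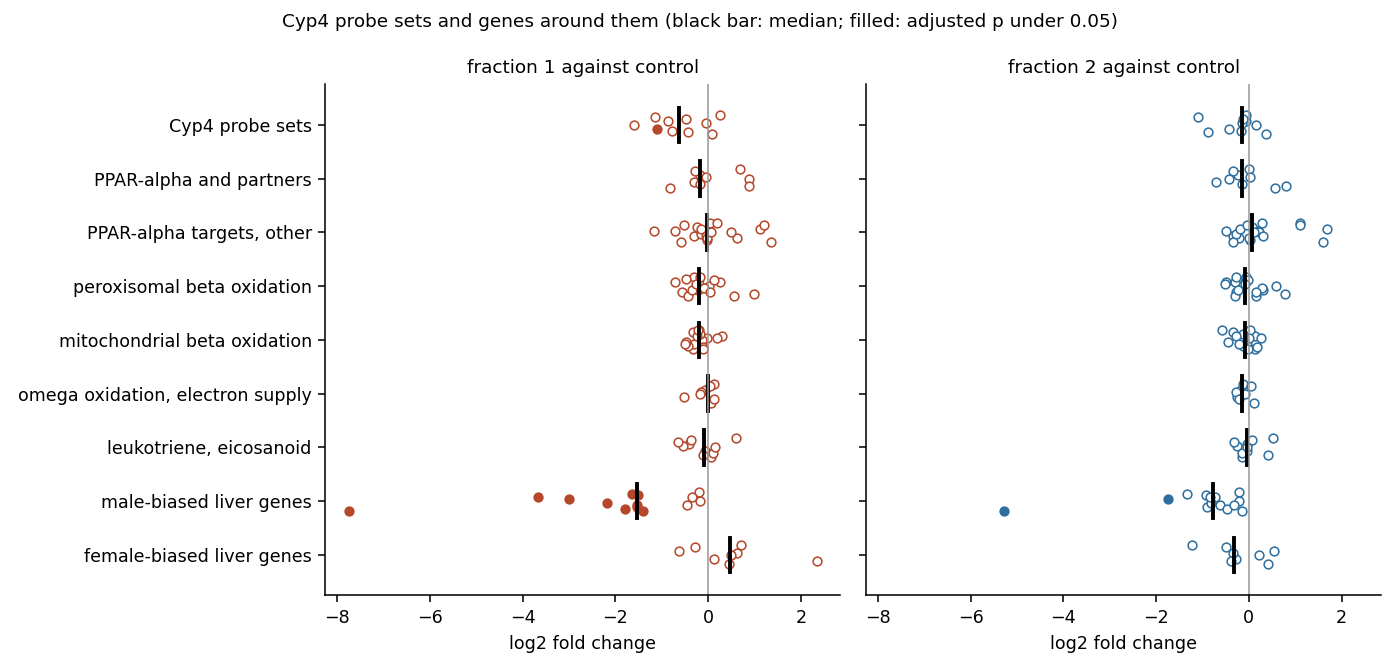
Log2 fold changes after fraction 1 and after fraction 2, each against control, of the 10 Cyp4 probe sets and of 8 lists of genes, with a black bar at each median and filled points for an adjusted p under 0.05. The Cyp4 median after fraction 1, -0.63, lies between those of the fatty acid oxidation lists, near -0.2, and of the male-biased genes at -1.54. Without fraction 1 replicate b it is -0.23, beside -0.20 for the peroxisomal and -0.18 for the mitochondrial list. The lists were chosen with earlier results of these data known, so these positions are a description only.

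By variation over the 6 arrays, Cyp4a14 (SD 1.04 on the log2 scale) and Cyp4a12a (SD 0.97) led the family, and genes with the most similar profiles were taken from 2281 genes that spanned at least 1 on that scale. For Cyp4a12a the first were Trib1, a pseudokinase of hepatic lipid metabolism (Pearson r = 0.996 over 6 arrays), C4bp, an inhibitor of complement (0.984), and Myo10, an unconventional myosin (0.983). Il1rap, an accessory chain of the receptor for interleukin 1 (0.982), and Inhbe, which encodes an activin subunit of liver (0.98), followed. Trib1 read 103.6 and 37.6 array units after fraction 1, 205.1 and 169.6 after fraction 2, and 194.9 and 150.6 in control. Myo10 was dim, at 79.9 and 46.6 after fraction 1, 105 and 92.5 after fraction 2, and 109.7 and 94.7 in control. The 40th percentile of the arrays was 92.5 to 116.3 array units. On fraction 1 replicate b, where it was 105.3, both genes lay below it. An r over 0.9 with Cyp4a12a was reached by 67 of the 2281. For Cyp4a14 4 did, Znrf1, a ubiquitin ligase (0.97), Steap4, a metalloreductase (0.969), Bmi1, a Polycomb protein (0.939), and Ap4m1, an adaptor subunit (0.905), followed by the gap junction gene Gja1 (0.893). Steap4 read 786.8 and 491.7 after fraction 1, 595.4 and 656 after fraction 2, and 1076 and 767.5 in control. These correlations describe 6 arrays that share groups and scan batches, and were picked as the highest of many.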

How the data were processed

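Values are the deposited signal intensities of the authors, linear, 1 for every probe set on every array. Their scaling was checked: trimmed means (2% off each end) differed by at most 0.082% between arrays. The software behind it is not given in the sources used here. The authors' experiment files, settings and no measurement, gave scan batch and chip lot per the file headers. Of 22690 probe sets 64 controls were left out, and 14755 were tested, having at least 2 of 6 arrays at or above the array's 40th percentile. Values were log2(signal + 16), fitted over 3 groups with limma 3.58.1 in R 4.3.3 (lmFit, eBayes with a variance trend, 3 residual and 5.43 prior degrees of freedom), two-sided, with Benjamini-Hochberg adjustment over all tested probe sets. Symbols came from the platform annotation: 20393 probe sets had 1 gene symbol, 691 several and 1606 none. Groups came from the sample titles. The number of arrays limits the precision. Tested on simulated data of 14755 probe sets with 200 changed, the fit recovered 32.5%, 29.5% and 19.5% of 2-fold changes. Of 4-fold changes it recovered 90.5%, 86% and 90%. The order is fraction 1 against control, fraction 2 against control and between fractions. False were 5.80%, 4.84% and 13.3% of the calls with 2-fold changes, and 5.73%, 3.91% and 5.26% with 4-fold changes. The simulated noise was independent between arrays, with no scan batch, chip lot or outlying array. These shares may therefore differ for the real arrays, and for probe sets as variable as those of Cyp4a14 and Cyp4a12a. Named were all Cyp4 probe sets, up to 4 genes of smallest p per list with any that passed, of which the text gives a selection, and the 5 most similar profiles of the 2 most variable Cyp4 genes. The marker lists of cell types were named by their summed signals. Members and lists were chosen with earlier results of these data known. Alternatives were other normalizations, pseudocounts, filters, blocks and arrays left out. Figures used Python 3.11.15 and matplotlib 3.10.9.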

Additional observations from a re-analysis of the deposited data

How the results depend on the processing

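The single Cyp4 call after fraction 1 was lost (0 called) with quantile normalization, median centring, a pseudocount of 1, no filter, no variance trend, scan batch 1 alone and the compared groups alone. It held with a pseudocount of 64, the filter at the 60th percentile, and scan batch or chip lot as a block. With an array left out the count ran from 0 to 1. Without fraction 1 replicate a the 1 called was Cyp4a12a and not Cyp4v3. After fraction 2 the count was 0 under each of the 17 alternatives. Between the fractions it ran from 0 to 1 with an array left out, and was 1 with the replicate letters as a block (replicate block), Cyp4a12a (adjusted p = 0.0308), while over all probe sets the calls went to 75 with that block, against 2 without it. The 2 replicates b shared scan batch 1 and chip lot 2, while the 2 replicates a differed in batch and in lot. Deviations of the 2 replicates a from their group means had r = 0.030. That value alone cannot settle whether arrays of the same letter were paired. The cause of these changes was not tested. Median centring moved the median of all fold changes after fraction 2 to 0.07, against -0.04.

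Of 517 recomputed single fold changes 27 changed sign, all of values whose intervals included 0. Cyp4f16 after fraction 2 turned to 0.060 (quantile normalization), 0.058 (median centring), 0.062 (batch 1 alone) and 0.049 (chip lot). The Cyp4v3 _at probe set after fraction 2 turned to 0.043 with median centring, and with chip lot as a block it, Cyp4f14 and Cyp4f15 turned to 0.12, 0.15 and 0.078. Cyp4b1 after fraction 1 turned to -0.087 in batch 1. Between the fractions Cyp4a14 turned to 0.019 (quantile) and 0.24 (scan batch), and Cyp4f13 to -0.071 (scan batch), -0.067 (chip lot) and -0.059 (batch 1). With an array left out, Cyp4a14, Cyp4b1 and Cyp4f13 after fraction 1 ran from -2.33 to 0.047, -0.22 to 0.36 and -0.24 to 0.16. Cyp4a12a, Cyp4f13, Cyp4f15 and Cyp4f16 after fraction 2 ran from -0.057 to 0.37, -0.35 to 0.044, -0.29 to 0.031 and -0.32 to 0.21. Between the fractions Cyp4a14 and Cyp4f13 ran from -1.24 to 1.14 and -0.059 to 0.28. A group cut to 1 array was assumed to vary like the other groups. Pairing by the replicate letters entered only the replicate block between the fractions, and not the main results. The filter at the 60th percentile left no Cyp4f16 value.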
